A study of Mus musculus with 12 samples.

Results

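The response of isolated mouse cardiomyocytes to leukemia inhibitory factor was read from 6 of the 12 libraries of the series, 3 treated with mLIF and 3 with PBS. It covers 13184 of the 22915 genes in the deposited table, namely those that reached 10 normalized counts in 3 or more of the 12 libraries. The cells were primary cardiomyocytes from adult male C57/Bl6 mice aged 12 weeks, kept in culture under normoxia for 24 h. The PBS group received the solvent alone, and the mLIF group recombinant murine LIF at 25 ng/mL by the sample descriptions (the study's methods give a lower concentration). The remaining 6 libraries, 3 each with murine oncostatin M (mOSM) and with a human-like oncostatin M (hlOSM) at the same dose and time, entered the model fit and are used below only to place the mLIF values. All groups share the same cells, medium and time, and no group carries a genetic change. Neither source says whether the 3 libraries of a group came from separate hearts, so the p-values measure the spread between these libraries, which may be technical.

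LIF is a cytokine of the interleukin-6 family. It binds its own receptor (gene Lifr), which pairs with the shared chain gp130 (Il6st), and the complex activates Janus kinases that phosphorylate STAT3 and other STAT factors. STAT3 then drives target genes, among them Socs3, whose product shuts the receptor complex down again. In the mouse, oncostatin M signals mainly through the oncostatin M receptor (Osmr) with gp130, whereas hlOSM was designed to engage both receptors. In heart muscle this family is known for growth, survival and dedifferentiation responses of cardiomyocytes.

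The values are normalized counts, and their totals lay between 2792911 and 2911689 in the 6 libraries. These totals are not numbers of reads. The study's methods give an average number of reads per library, but the depth of each single library is unknown. A shift common to libraries of one replicate number appears to have been removed from the values before deposit, though no source used here mentions such a step. Averaged over the 4 conditions, the number 3 libraries differed from the number 1 libraries with an SD of 0.0019 on the log2 scale over the 6626 genes with a mean of at least 100, whereas PBS 3 differed from PBS 1 with an SD of 0.173. The p-values below come from a fit without the replicate number, which counts 8 residual degrees of freedom. If that effect was removed, 6 are left, and these p-values are too small. The counts from a fit blocked on the number, which has 6, therefore stand beside them. All 8 cardiomyocyte markers were measured, with Ttn between 27991 and 33150 in the 6 libraries. Fibroblast and endothelial markers were also present. The 8 endothelial markers summed to 1285 to 1344 in PBS and 1316 to 1356 in mLIF, and the 8 fibroblast markers to 2296 to 2526 and 2110 to 2251. Markers of neutrophils, lymphocytes, adipocytes and erythroid cells summed to at most 5 in any of these libraries. The defining neutrophil genes S100a8, S100a9 and Ly6g and the lymphocyte genes Cd3e, Cd3g, Ms4a1 and Nkg7 were not analysed here.

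With mLIF, 721 genes rose and 586 fell at a Benjamini-Hochberg adjusted p under 0.05 (limma), which is 5.47% and 4.44% of the genes tested. With the replicate block 447 rose (3.39%) and 337 fell (2.56%), all of them among the genes called without it. Of the genes named below as raised or lowered, Acacb, Bdnf, Ccl8, Col1a2, Cryab, Fn1, Gm15441, Mturn, Myh7, Nid2, Ppp1r3c, Ryr2, Sh2d5, Stat3, Stk17b and Supt5 did not pass with the block (adjusted p from 0.0506 to 0.11). The response was small in size. The median log2 fold change was 0.44 among the raised genes and -0.35 among the lowered ones, 508 raised and 464 lowered genes (70.5% and 79.2%) differed by less than 1.5-fold, and 76 and 30 by 2-fold or more. Of all genes tested, 1939 (14.7%) lay higher in each mLIF library than in any PBS library and 2061 (15.6%) lay lower. Among the genes past the threshold, 700 of 721 rises and 577 of 586 falls showed no overlap.

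**Figure D1:**
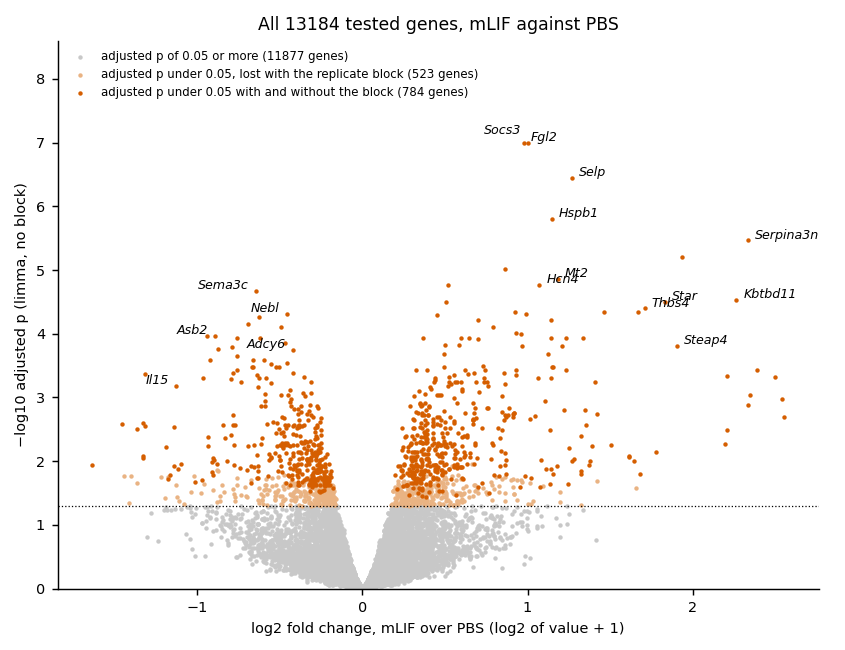
Each point is a tested gene, with its log2 fold change (mLIF over PBS) on the x axis and −log10 of the limma adjusted p on the y axis; the dotted line marks an adjusted p of 0.05. Dark orange points pass with and without the replicate block (447 rises, 337 falls) and light orange points only without it; the rises reach a log2 fold change of 2.55 and the falls of -1.64.

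The libraries numbered 3 held the widest contrast. Over the raised genes the median difference between mLIF and PBS of the same number was 0.34 for number 1, 0.38 for number 2 and 0.56 for number 3 (log2), and over the lowered genes -0.30, -0.28 and -0.45. PBS 3 was the highest PBS library in 455 of the 586 lowered genes (77.6%), against 46.8% of all genes tested, and mLIF 3 the highest mLIF library in 457 of the 721 raised genes (63.4%), against 41.8%. Without all 4 libraries numbered 3, an alternative chosen after seeing the data, 372 genes rose and 281 fell, and 331 and 242 of these were among the genes called with all libraries. The counts were 273 and 229 without mLIF 3 alone, and 427 and 199 without PBS 3 alone. Of the genes named below, Acacb, Acta1, Adamts5, Cd44, Col1a2, Cryab, Ddit3, Ddx60, Elovl6, Fn1, Gm15441, Hspb2, Igfbp3, Il33, Mturn, Myc, Nid2, Pecam1, Polr1b, Ppp1r3c, Ryr2, Slc7a11, Stat3 and Tmem144 did not pass without the libraries numbered 3, with adjusted p-values from 0.0509 to 0.445.

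Secreted proteins of the acute phase had the highest median of the 53 function lists examined. All these lists were chosen with earlier results of these data known. Serpina3n, a secreted serine protease inhibitor of the acute-phase type (chr12:104406729-104414329 on mm10), had normalized counts of 44, 35 and 16 in PBS and of 140, 132 and 188 in mLIF. It rose by 2.34 ± 0.23 on the log2 scale (SE, n = 3 per group, as for every fold change below; limma adjusted p = 3.42e-06), with PBS 3 lowest and mLIF 3 highest. Of the 26 genes listed as acute-phase and hepatic-type secreted proteins, 10 were tested. Of these 10, 7 rose and none fell, also with the block, where 5.47% of all genes rose and 4.44% fell. The list's median fold change was 0.85 against 4e-04 over all genes tested. The fibrinogen-like protein Fgl2 went from 377, 341 and 304 to 617, 658 and 735 (0.98 ± 0.08, adjusted p = 1.02e-07), and its groups were far apart. Lrg1, a leucine-rich glycoprotein of the acute phase, stood at 24, 15 and 19 in PBS and 39, 45 and 46 in mLIF (1.14 ± 0.15, adjusted p = 6.08e-05). Timp1, the inhibitor of matrix metalloproteinases that is also a STAT3 target, went from 98, 87 and 68 to 132, 136 and 150 (0.73 ± 0.11, adjusted p = 0.000326). Ceruloplasmin (Cp), the copper-carrying ferroxidase of plasma, rose by 0.31 ± 0.06 (adjusted p = 0.00226). The remaining raised members, the iron hormone hepcidin (Hamp) and the siderophore-binding lipocalin Lcn2, had low values of at most 5 in PBS and of 8 to 13 in mLIF. Hamp and Lcn2 could thus meet the filter only through cytokine-treated libraries, so the filter itself favoured rises among the tested members of this list.

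Serpina3n also belongs to the 18 tested serpins, of which 4 rose (22.2%) and 1 fell (5.56%), where 5.47% and 4.44% of all genes did. Serpina3i, a member of the same gene cluster, stood at 10, 13 and 10 in PBS and at 30, 25 and 33 in mLIF (1.34 ± 0.18, adjusted p = 0.000116). Reads shared by such near-identical copies were left out of the counting, so the level of either gene is uncertain to that extent. The intracellular inhibitor Serpinb1a rose by 1.06 ± 0.17 (adjusted p = 0.000499), from 211, 215 and 111 to 325, 338 and 422. Serpinc1, which encodes antithrombin, fell by 0.69 on the log2 scale (SE 0.15, adjusted p = 0.00587); 34.4% of its exonic bases are shared with Zbtb37 on the opposite strand.

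Among the genes of the signaling pathway itself, the feedback inhibitor Socs3 and the sister receptor Osmr showed the clearest rises. Socs3 (chr11:117966079-117970047), which binds gp130 and the Janus kinases and blocks them, had 199, 209 and 168 normalized counts in PBS and 369, 363 and 425 in mLIF. It rose by 1.00 ± 0.08 (adjusted p = 1.02e-07) and was the single member to pass among 16 tested SOCS and other brakes of the pathway. This is 6.25% of that list, near the 5.47% of all genes that rose. Cish, Socs2 and Pim1, which STAT factors also control in other cells, did not pass (adjusted p = 0.0938, 0.993 and 0.308). Osmr, the receptor for the other cytokine, stood at 762, 735 and 560 in PBS and 1047, 980 and 1061 in mLIF (0.60 ± 0.10, adjusted p = 0.000576), so the groups were well apart. Lifr, the receptor that mLIF binds, had 344, 328 and 431 in PBS and 349, 334 and 350 in mLIF, and gp130 (Il6st) 1904, 1791 and 1944 against 1908, 1877 and 2001. Neither passed the test (adjusted p = 0.575 and 0.665), and Lif itself did not either, with 77, 68 and 92 against 61, 72 and 70 (adjusted p = 0.266). Osm was at 0 or 1 in all 12 libraries and Socs1 at 0 to 4, below the filter. Stat3 showed a small change, from 1092, 1047 and 990 to 1183, 1173 and 1217 (0.19 ± 0.05, adjusted p = 0.028). With the replicate block its adjusted p was 0.0528, and over its alternatives the adjusted p ranged from 0.0024 to 0.149. Jak1, Jak2, Stat5a and Stat5b did not pass (adjusted p from 0.3 to 0.986).

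Of 26 tested genes that textbooks list as STAT3 targets, 11 rose and 1 fell, 10 and 1 with the block, against 5.47% raised and 4.44% lowered over all genes. The list had a median fold change of 0.12, and it shares Serpina3n, Lcn2, Timp1, Socs3, Osmr and Stat3 with the groups above. Like the other lists, it was chosen with earlier results of these data known, so these shares are no independent support. Its member Lcn2 could meet the filter only through cytokine-treated libraries. The transcription factor gene Cebpd stood at 90, 85 and 50 in PBS and 112, 138 and 152 in mLIF (0.86 ± 0.16, adjusted p = 0.00192). Bcl3, an atypical inhibitor of NF-kB, went from 83, 89 and 72 to 113, 107 and 124 (0.49 ± 0.11, adjusted p = 0.00528). The interleukin-4 receptor chain Il4ra rose by 0.44 ± 0.07 (adjusted p = 0.000562). Myc, the growth-promoting factor, had 262, 239 and 267 in PBS and 307, 316 and 357 in mLIF (0.35 ± 0.10, adjusted p = 0.0272), with no overlap but a rise that did not pass in 3 of the 6 fits without 1 library. The gene that fell was Vegfa, the vascular growth factor, with 461, 442 and 589 in PBS and 348, 369 and 388 in mLIF (-0.42 ± 0.09, adjusted p = 0.00378). The early factors Fos and Junb did not pass at this time point (adjusted p = 0.351 and 0.65).

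**Figure D2:**
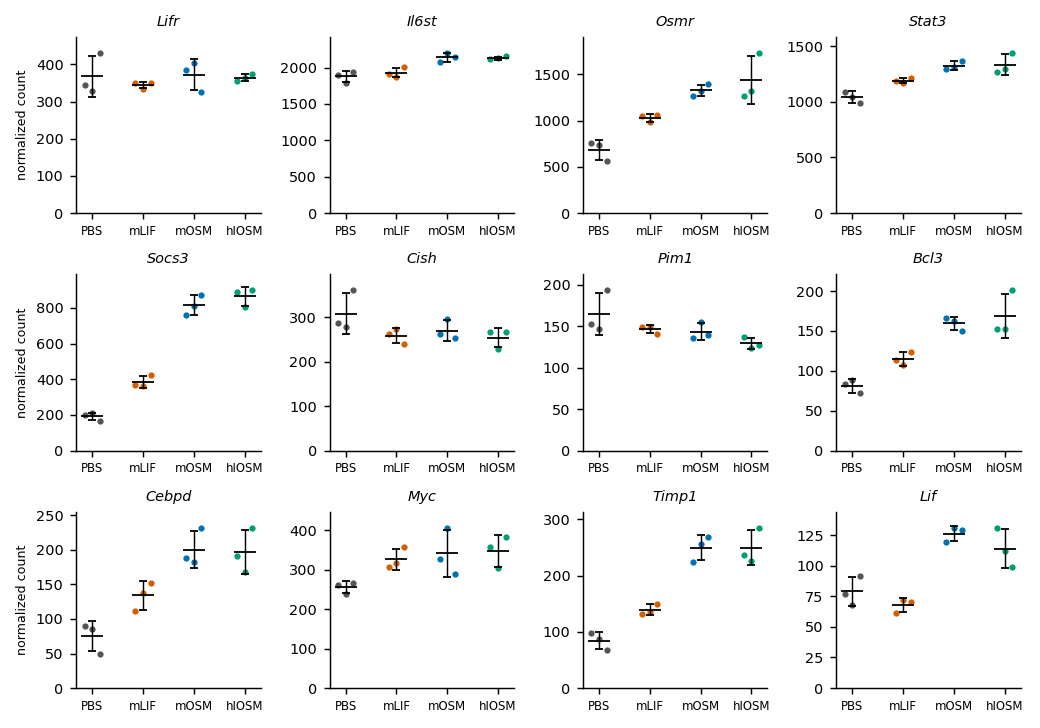
Normalized counts (y axis, starting at 0) of 12 genes of the LIF pathway and its targets in the 4 conditions (x axis); points are libraries, bars the mean ± SD of 3. Socs3 lies between 168 and 209 in PBS and between 363 and 425 in mLIF, while the values of Lifr and Il6st in PBS and mLIF overlap.

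The letters that STAT factors bind, TTCNNNGAA on both strands (the pattern reads the same on each), were looked up in RefSeq promoters of build GRCm38.p6, from 250 bases before to 50 after the annotated start. A promoter was found by symbol for 560 raised, 427 lowered and 9764 of all tested genes. The pattern occurred in 62 (11.1%) of the raised, 32 (7.49%) of the lowered and 807 (8.27%) of all tested genes with a promoter. Its narrower form TTCCNGGAA, contained in the first, occurred in 15 (2.68%), 3 (0.703%) and 151 (1.55%). These shares are a description without a test, and a match is not a binding site. The 250 bases before the start of 3 raised genes that hold the pattern, shown here with it in capitals, are those of Steap4 (chr5:7960222-7960471, + strand), Sele (chr1:164047984-164048233, + strand) and Serpina3i (chr12:104262872-104263121, + strand).
Steap4: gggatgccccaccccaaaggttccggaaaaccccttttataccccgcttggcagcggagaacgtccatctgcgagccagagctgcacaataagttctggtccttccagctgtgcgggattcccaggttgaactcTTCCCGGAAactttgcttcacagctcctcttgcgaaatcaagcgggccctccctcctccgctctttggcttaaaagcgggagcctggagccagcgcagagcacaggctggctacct
Sele: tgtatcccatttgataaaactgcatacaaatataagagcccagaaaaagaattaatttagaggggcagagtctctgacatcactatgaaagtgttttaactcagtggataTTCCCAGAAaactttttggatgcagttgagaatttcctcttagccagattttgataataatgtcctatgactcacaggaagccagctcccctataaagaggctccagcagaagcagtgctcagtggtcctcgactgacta
Serpina3i: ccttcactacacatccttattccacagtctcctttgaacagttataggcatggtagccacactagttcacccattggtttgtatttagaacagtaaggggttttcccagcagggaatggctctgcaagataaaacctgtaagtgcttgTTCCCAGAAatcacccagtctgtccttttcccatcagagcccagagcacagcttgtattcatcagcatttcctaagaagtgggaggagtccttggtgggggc
The pattern begins 116, 140 and 102 bases before the annotated start in Steap4, Sele and Serpina3i. These 3 were picked among raised genes. It also lies in the promoters of Cish, which did not pass, and of Mef2c, which fell.

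In the 2 lists of metal handling some genes rose with mLIF, most did not pass and none fell. Steap4, a metalloreductase that reduces iron and copper for uptake, had 66, 65 and 22 normalized counts in PBS and 146, 167 and 215 in mLIF (1.90 ± 0.27, adjusted p = 0.000154). Of 23 tested iron genes 9 rose, 6 with the block, and 14 did not pass, where 5.47% of all genes rose, with a list median of 0.20. Besides Steap4, Hamp and Cp they include the iron importer Slc11a2 (0.55 ± 0.12, adjusted p = 0.00534) and Slc39a14, which imports zinc and iron (0.34 ± 0.06, adjusted p = 0.000803). As said above, Hamp could meet the filter only through cytokine-treated libraries. The list of metallothioneins and zinc transport had 7 of 19 tested members raised and none lowered, 6 with the block, and a median of 0.25. The metal-binding proteins Mt1 and Mt2 changed alike. Mt1 went from 75, 57 and 45 to 131, 114 and 142 (1.14 ± 0.16, adjusted p = 0.000116). Mt2 went from 70, 65 and 46 to 141, 123 and 145 (1.18 ± 0.13, adjusted p = 1.36e-05). Of the exonic bases of Mt2, 73.5% are shared with a gene on the opposite strand, Gm45774, which also rose (1.62 ± 0.37, adjusted p = 0.00827). The zinc importer Slc39a10 rose by 0.38 ± 0.07 (adjusted p = 0.000887).

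The heat shock genes that rose were mostly small ones. Hspb1, which binds unfolded proteins and actin, stood at 57, 54 and 44 in PBS and 118, 108 and 119 in mLIF (1.15 ± 0.11, adjusted p = 1.57e-06). Hspb2 and Cryab, neighbours that share exonic bases on opposite strands (30.2% of Hspb2), rose by 0.45 ± 0.11 and 0.23 ± 0.07 (adjusted p = 0.0114 and 0.0292). With the block the adjusted p of Cryab was 0.0547, and its alternatives ranged from 0.00895 to 0.131. In all, 4 of 20 tested cytosolic heat shock genes rose (20%) and none fell, with a list median of -0.03. Over all genes tested, 5.47% rose and 4.44% fell. Hspa1l is among these rises, and 71.9% of its exonic bases are shared with a gene on the opposite strand. Of 26 genes of the unfolded protein response 1 fell (3.85%), namely Ddit3 (-0.40 ± 0.10, adjusted p = 0.0115). Of 28 antioxidant enzymes 4 rose (14.3%) and 1 fell (3.57%), 2 and 0 with the block. They include Mgst1, a membrane glutathione transferase (0.47 ± 0.10, adjusted p = 0.00562), and the cystine importer Slc7a11 (0.68 ± 0.16, adjusted p = 0.011).

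The other genes among the 15 largest rises have varied roles. Star, which carries cholesterol into mitochondria for steroid synthesis, had 252, 200 and 99 in PBS and 623, 513 and 711 in mLIF (1.83 ± 0.22, adjusted p = 3.19e-05). Thbs4, a matrix glycoprotein of stressed muscle, went from 76, 77 and 34 to 176, 171 and 240 (1.71 ± 0.21, adjusted p = 4.01e-05). Thbd, the thrombin receptor of vessel walls, went from 121, 110 and 58 to 240, 236 and 291 (1.46 ± 0.18, adjusted p = 4.61e-05). In these 3 genes PBS 3 was lowest and mLIF 3 highest. The same order held in Angptl4, an inhibitor of lipoprotein lipase (158, 113 and 68 against 234, 225 and 303, adjusted p = 0.000376), and in Gcnt2, an enzyme that branches glycans (110, 103 and 58 against 177, 181 and 271, adjusted p = 0.000116). Selp was an exception in that PBS was even. This adhesion molecule of platelets and endothelium had 37, 35 and 34 in PBS and 93, 90 and 77 in mLIF (1.27 ± 0.11, adjusted p = 3.59e-07). Card14, a scaffold of NF-kB signaling, shares 20.7% of its exonic bases with Sgsh on the opposite strand and rose by 1.67 ± 0.21 (adjusted p = 4.53e-05). The surface glycoprotein gene Cd24a, the uncharacterized Gm13889 and Ahr, a ligand-activated transcription factor, rose by 1.15 ± 0.18, 1.12 ± 0.17 and 1.11 ± 0.20 (adjusted p = 0.000335, 0.000205 and 0.00112). Gm13889 shares 20.8% of its exonic bases with a gene on the same strand. Each of the 15 also passed without the libraries numbered 3, where their largest adjusted p was 0.011.

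**Figure D3:**
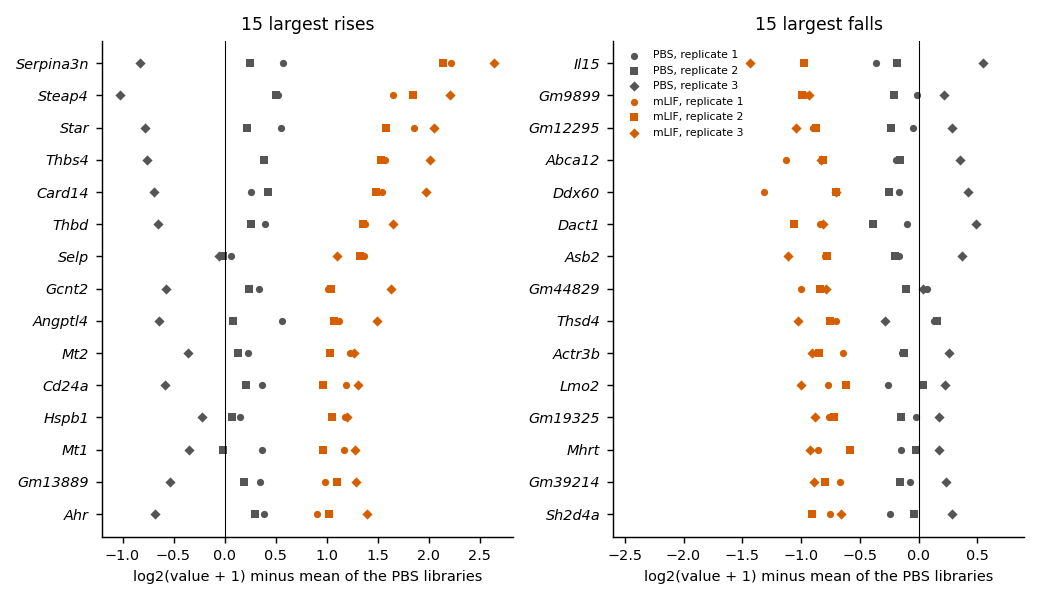
Each row is a gene and each point a library, placed by its log2(normalized count + 1) minus the mean of the PBS libraries (x axis); gray is PBS, orange mLIF, and the symbol gives the replicate number. In most rises the PBS 3 diamond lies at the left of its group and the mLIF 3 diamond at the right, whereas in Selp the 3 PBS libraries fall together.

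Leukocyte adhesion genes other than Selp also rose. Sele, the endothelial selectin, went from 36, 34 and 25 to 47, 60 and 54 (0.75 ± 0.14, adjusted p = 0.00149), and the hyaluronan receptor gene Cd44 rose by 0.41 ± 0.10 (adjusted p = 0.0118). Pecam1 fell (-0.28 ± 0.07, adjusted p = 0.00916), from 251, 255 and 265 to 217, 210 and 208. Thus 3 of 11 tested genes of this list rose (27.3%) and 1 fell (9.09%), where 5.47% and 4.44% of all genes did. The further endothelial markers Cdh5, Kdr, Tek, Vwf, Emcn, Cldn5 and Eng did not pass (adjusted p from 0.0708 to 0.993). Of cytokines, Il33 was low and rose, from 11, 5 and 2 to 7, 18 and 18 (1.25 ± 0.34, adjusted p = 0.0232); its groups overlap, and without the libraries numbered 3 its adjusted p was 0.402. Among chemokines, 1 of 18 rose (Ccl8, with at most 5 in any of the 6 libraries, adjusted p = 0.0441); its call was lost with the block, where the adjusted p was 0.0966 within a range of 0.018 to 0.419 over the alternatives. Interferon-stimulated genes gave 1 rise and 1 fall among 46 tested, with a median of -0.18.

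Il15 was the largest fall among the genes with a mean of at least 50 that also passed with the block. This cytokine, which sustains lymphocytes and acts on muscle, had 89, 101 and 169 in PBS and 58, 58 and 42 in mLIF (-1.13 ± 0.19, adjusted p = 0.000659), with PBS 3 well above the other libraries. Abca12, a lipid transporter, went from 190, 195 and 277 to 99, 123 and 122 (-0.92 ± 0.14, adjusted p = 0.000254). Asb2, the substrate-binding part of a muscle ubiquitin ligase that degrades filamins, went from 243, 237 and 354 to 157, 159 and 126 (-0.89 ± 0.12, adjusted p = 0.000108). Ddx60, an antiviral helicase, fell by 0.91 on the log2 scale (adjusted p = 0.0149), and without the libraries numbered 3 its adjusted p was 0.088, whereas the other 14 of these falls passed there. Dact1, Thsd4, Actr3b, Lmo2 and Sh2d4a fell by 0.77 to 0.90 on the log2 scale. The noncoding or uncharacterized genes Gm9899, Gm12295, Gm44829, Gm19325 and Gm39214 are among the 15 as well, and so is Mhrt, a heart-specific RNA transcribed antisense to Myh7. Dact1 and Gm39214 share 34.9% and 20.5% of their exonic bases with other genes on the opposite strand. Mhrt went from 103, 113 and 129 to 63, 76 and 60 (-0.79 ± 0.16, adjusted p = 0.00273), and 39.9% of its exonic bases are shared with Myh7 on the other strand. Reads that overlap several genes were left out of the counting. Its strand setting is not stated, so whether reads on the shared bases of such antisense pairs were among them is unknown.

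Contractile genes made up the list with the most falls. Of 47 tested genes of the sarcomere and Z-disc, 17 fell (36.2%) and 2 rose (4.26%), 16 and 2 with the block. Over all genes tested, 4.44% fell and 5.47% rose. The list's median was -0.18 against 4e-04 over all genes tested. Fsd2, a muscle protein near the ryanodine receptor, went from 763, 738 and 860 to 528, 506 and 491 (-0.63 ± 0.08, adjusted p = 5.47e-05). Nebl, the thin-filament protein nebulette, went from 1686, 1604 and 1814 to 1284, 1246 and 1187 (-0.46 ± 0.06, adjusted p = 4.91e-05). Mylk3, the cardiac myosin light chain kinase, went from 1077, 1056 and 1293 to 828, 814 and 735 (-0.52 ± 0.08, adjusted p = 0.000335), and its relative Mylk4 from 864, 867 and 1141 to 642, 623 and 586 (-0.62 ± 0.09, adjusted p = 0.000116). The main adult myosin Myh6 changed less, from 3631, 3603 and 4060 to 3218, 3132 and 2849 (-0.30 ± 0.07, adjusted p = 0.0149). The fetal isoform Myh7 did not rise, and its counts of 457, 463 and 475 in PBS and 376, 394 and 394 in mLIF gave -0.26 ± 0.08 (adjusted p = 0.0415; 0.0699 with the block, range 0.00301 to 0.128), and it passed in 0 of the 6 fits without 1 library. The raised members were Acta1, skeletal actin and a gene of the fetal program (0.27 ± 0.08, adjusted p = 0.0241), and Fhl1, a LIM protein that binds titin (567 to 744 in PBS, 903 to 981 in mLIF). The natriuretic peptide genes Nppa and Nppb and smooth muscle actin Acta2 did not pass (adjusted p = 0.29, 0.873 and 0.155).

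Of the 8 cardiomyocyte markers 6 fell, where 4.44% of all genes fell. The summed normalized counts of all 8 were 47572 to 49402 in PBS and 41237 to 43056 in mLIF. Most of each sum was Ttn, with 32687 to 33150 in PBS and 27991 to 29187 in mLIF. In whole cultures a smaller share of cardiomyocytes and less RNA per cell cannot be told apart. The markers Actc1 and Myl2 did not pass, with fold changes of -0.12 and -0.23 (adjusted p = 0.278 and 0.0681), and neither did the calcium pump Atp2a2, with 3627, 3458 and 3700 in PBS and 3689, 3373 and 3173 in mLIF (adjusted p = 0.464). The 5 tested macrophage markers gave 1 rise (Cd68, 0.61 ± 0.16, adjusted p = 0.0192), and 1 of 8 fibroblast markers fell (Col1a2). The shares over all genes were 5.47% raised and 4.44% lowered. The part of cell composition in the muscle genes was not tested.

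Of 32 tested ion channel genes 10 fell, 2 rose (Hcn4 and Kcnd3) and 20 did not pass, where 4.44% of all genes fell and 5.47% rose. The numbers were the same with the block, and the median was -0.20. Kcnj2, which carries the inward rectifier current that holds the resting potential, had 375, 384 and 447 in PBS and 288, 300 and 288 in mLIF (-0.46 ± 0.07, adjusted p = 0.000288). Scn4b, a sodium channel subunit, went from 270, 290 and 351 to 195, 205 and 200 (-0.59 ± 0.10, adjusted p = 0.000881). The background potassium channel Kcnk3 went from 150, 148 and 158 to 93, 107 and 101 (-0.60 ± 0.09, adjusted p = 0.000254). In contrast, Hcn4, the pacemaker channel of the sinus node and the embryonic heart, rose from 40, 46 and 62 to 102, 104 and 103 (1.07 ± 0.12, adjusted p = 1.73e-05). Here PBS 3 was the highest PBS library, unlike in most rises above. Kcnd3, a channel of the transient outward current, rose from 69, 83 and 77 to 109, 103 and 108 (0.48 ± 0.11, adjusted p = 0.0103). The lowest fold change of the list, and of all genes called, was that of the potassium channel Kcna4 (-1.64 ± 0.40, adjusted p = 0.0116), singled out after its values were seen, with only 11 to 14 in PBS and 2 to 5 in mLIF.

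In calcium handling and receptor signaling, too, falls outnumbered rises. Of 25 tested genes of the sarcoplasmic reticulum, 8 fell (32%) and 1 rose (4%), 6 and 1 with the block. Over all genes tested, 4.44% fell and 5.47% rose. Hrc, a calcium-binding protein of the reticulum, went from 966, 954 and 1034 to 779, 781 and 705 (-0.38 ± 0.08, adjusted p = 0.00273), and sarcalumenin (Srl) fell by 0.27 on the log2 scale (adjusted p = 0.00267). The release channel Ryr2 changed by -0.16 ± 0.05 (adjusted p = 0.0392; 0.067 with the block, range 0.00739 to 1). Tmem38b, a potassium channel of the reticulum membrane, rose by 0.45 ± 0.09 (adjusted p = 0.002). In the list of adrenergic and other G-protein signaling, 5 of 20 fell (25%) and 1 rose (5%). The muscarinic receptor Chrm2 went from 950, 893 and 984 to 739, 716 and 658 (-0.42 ± 0.07, adjusted p = 0.00042), and the adenylyl cyclase Adcy6 from 557, 561 and 642 to 433, 432 and 449 (-0.42 ± 0.06, adjusted p = 0.000179). Pde4b, which degrades cyclic AMP, rose from 366, 417 and 388 to 569, 543 and 565 (0.52 ± 0.06, adjusted p = 1.73e-05). Of 22 lineage transcription factors 6 fell (27.3%) and 1 rose (4.55%), 4 and 0 with the block. Examples are Mef2a (-0.25 ± 0.05, adjusted p = 0.00391), Mef2c (-0.29 ± 0.06, adjusted p = 0.00346) and Irx3 (-0.63 ± 0.10, adjusted p = 0.000499).

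**Figure D4:**
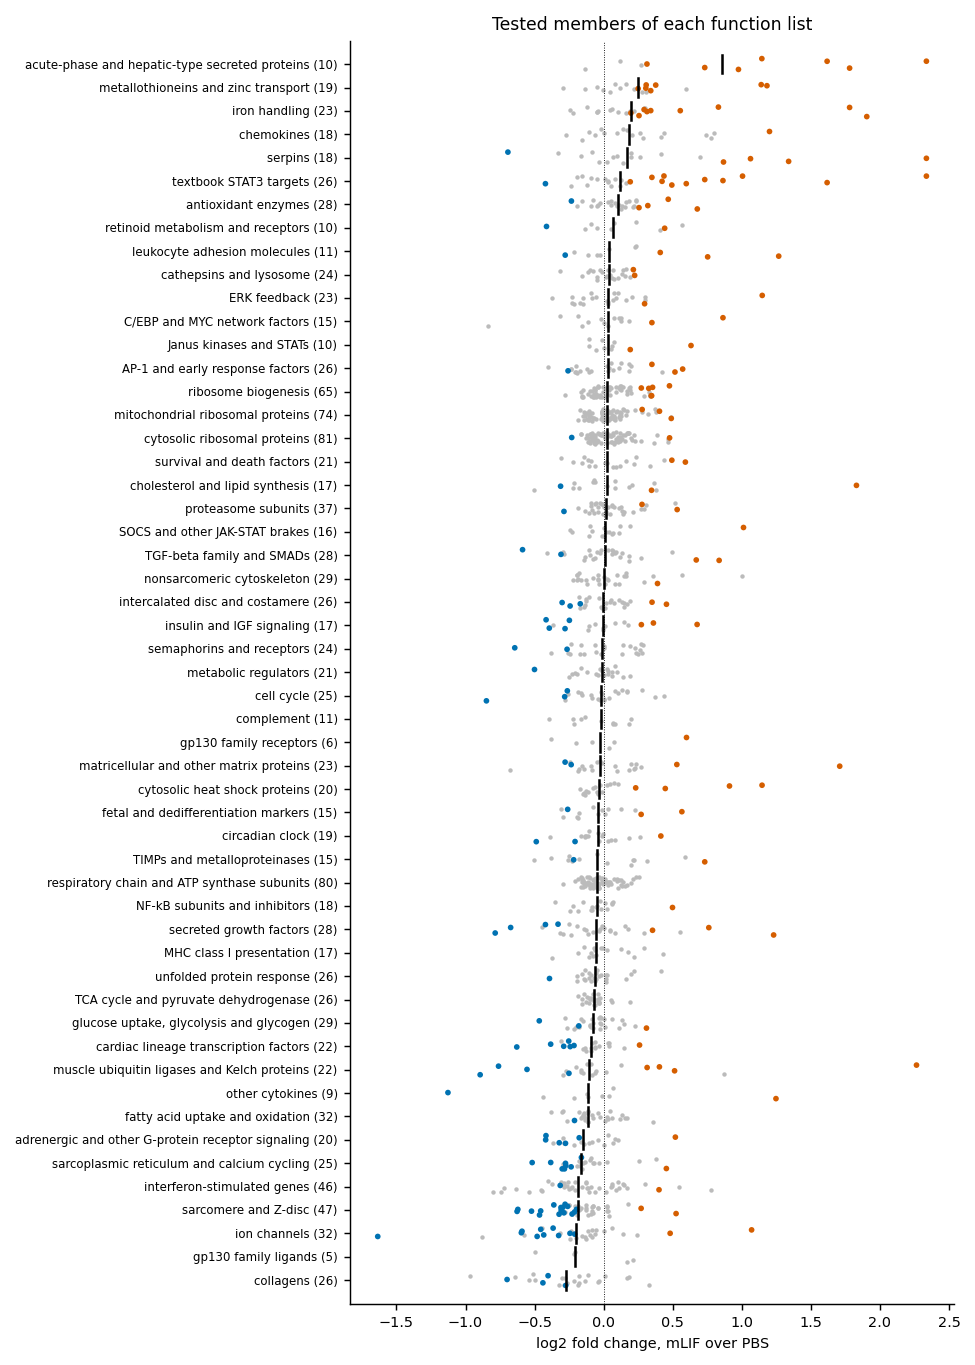
Log2 fold change (mLIF over PBS, x axis) of every tested member of the 53 function lists, with the number tested in parentheses; orange and blue points rose or fell at an adjusted p under 0.05, gray points did not pass, and the bar is the list's median. Lists are ordered by that median, from acute-phase proteins (0.85) to collagens (-0.27).

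Protein turnover genes split in both directions. Kbtbd11, a Kelch protein, went from 11, 13 and 4 to 37, 42 and 56 (2.26 ± 0.27, adjusted p = 2.94e-05), and 24.8% of its exonic bases are shared with a gene on the opposite strand. Asb15 fell from 316, 244 and 288 to 166, 183 and 149 (-0.76 ± 0.11, adjusted p = 0.00022). In all, 4 of 22 muscle ubiquitin ligases and Kelch proteins rose and 4 fell (18.2% each), where 5.47% and 4.44% of all genes did. Insulin signaling was divided in the same manner, with 3 rises (17.6%) and 4 falls (23.5%) among 17 tested genes. The insulin receptor substrate Irs1 (-0.42 ± 0.08, adjusted p = 0.00275) and the adaptor Grb14 (-0.39 ± 0.08, adjusted p = 0.00298) fell. The binding protein Igfbp3 rose (0.68 ± 0.13, adjusted p = 0.00178). Of the exonic bases of Irs1, 30.9% are shared with a gene on the opposite strand. Of 28 secreted growth factors, Angptl4, Fgf2 and Bdnf rose, Vegfa, Apln, Hbegf and Angpt1 fell, and 21 did not pass. Fgf2, which is not secreted by the usual route, went from 483, 412 and 292 to 641, 626 and 707 (0.76 ± 0.13, adjusted p = 0.000659). Sema3c, a guidance molecule of outflow tract development, fell from 541, 581 and 653 to 371, 404 and 358 (-0.64 ± 0.07, adjusted p = 2.11e-05).

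Energy metabolism gave few calls. None of 80 respiratory chain and ATP synthase genes and none of 26 genes of the TCA cycle passed in limma, and the medians were -0.05 and -0.07. An unadjusted limma p under 0.05 was found in 10 and 5 of them, against 3383 of all 13184 genes tested. Among 32 genes of fatty acid use 1 fell (Acacb), and its call was lost with the block. The coactivator Ppargc1a, a main regulator of mitochondria, had 419, 422 and 413 in PBS and 363, 374 and 382 in mLIF without passing (adjusted p = 0.0821). Perm1, a muscle partner of that coactivator, fell from 478, 459 and 561 to 355, 366 and 330 (-0.51 ± 0.08, adjusted p = 0.000335). Collagens had the lowest list median of all (-0.27). Of 26 tested, 4 fell (15.4%, against 4.44% of all genes), 2 with the block, none rose and 22 did not pass. Col6a1 went from 181, 185 and 228 to 140, 142 and 153 (-0.44 ± 0.10, adjusted p = 0.00913). Ribosome biogenesis factors gave 6 rises (9.23%) and no fall among 65, 4 with the block, where 5.47% of all genes rose. An example is Polr1b, a subunit of RNA polymerase I (0.35 ± 0.07, adjusted p = 0.00504).

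The genes that responded to mLIF were also compared directly between mLIF and each oncostatin M, without PBS, and in all 4 sets below between 52.7% and 73.2% of them did not pass. Of the 721 raised genes, 190 (26.4%) were higher still with mOSM and 9 (1.25%) lower than with mLIF, where 6.05% and 5.76% of all genes tested were higher and lower. With hlOSM, 247 (34.3%) were higher still and 6 (0.832%) lower, where 7.42% and 9.22% of all genes were. Of the 586 lowered genes, 134 (22.9%) were lower still with mOSM and 23 (3.92%) higher, and 260 (44.4%) were lower still with hlOSM and 17 (2.9%) higher. The mLIF libraries used to choose the genes also enter these differences. With the block, 141, 185, 86 and 168 genes moved further in these 4 sets. The mean of Socs3 was 192 ± 21.4 in PBS and 386 ± 34.2 in mLIF, 816 ± 56.3 in mOSM and 865 ± 52.9 in hlOSM (SD, n = 3), and it differed between mOSM and mLIF (adjusted p = 2.09e-09) and between hlOSM and mLIF (adjusted p = 5.14e-10). Timp1, Thbd, Selp and Osmr were likewise higher with each oncostatin M than with mLIF. For Thbs4, at 196 ± 38.5 in mLIF, 258 ± 54.2 in mOSM and 277 ± 43.1 in hlOSM, neither difference passed (adjusted p = 0.258 and 0.107). The same was true of Sema3c (adjusted p = 0.832 and 0.435) and Vegfa (adjusted p = 0.632 and 0.151). Over the 10 acute-phase genes the median fold change against PBS was 0.85 (mLIF), 1.68 (mOSM) and 1.66 (hlOSM), and over the 32 ion channels it was -0.20, -0.50 and -0.66. These 3 comparisons share the PBS libraries.

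A few genes stood apart with mLIF, that is, their mLIF values differed in the same direction from PBS, from mOSM and from hlOSM. There were 5 such rises (0.0379% of genes tested) and 14 such falls (0.106%), of which 2 and 6 passed all 3 comparisons with the block, and 1 and 6 without the libraries numbered 3. The mLIF libraries enter all 3 comparisons, so a chance deviation of these libraries would appear in each. Rnf144b, a ubiquitin ligase, had 207, 195 and 178 in PBS and 253, 279 and 290 in mLIF, and with mOSM it had 210, 201 and 176 and with hlOSM 187, 187 and 254. It rose by 0.50 ± 0.10 against PBS (adjusted p = 0.00304), and hlOSM 3 reached the lowest mLIF library. Tmem144, a membrane protein, was the other rise to pass with the block, at 334, 303 and 253 in PBS and 376, 372 and 415 in mLIF (adjusted p = 0.0116). Gm15441, which shares 36.2% of its exonic bases with Txnip on the opposite strand, had 10, 8 and 12 in PBS and 24, 17 and 20 in mLIF, and Txnip itself did not pass (adjusted p = 0.68). Mturn and Ppp1r3c, a glycogen-targeting subunit of protein phosphatase, complete the rises and were lost with the block.

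The 14 falls that stood apart have varied roles. Apln, the precursor of the vasoactive peptide apelin, had 51, 65 and 57 in PBS and 30, 37 and 32 in mLIF, while mOSM gave 78, 72 and 90 and hlOSM 79, 52 and 62 (-0.79 ± 0.15 against PBS, adjusted p = 0.00192). Adamts5, an aggrecan-cleaving protease, had 175, 195 and 242 in PBS and 129, 152 and 122 in mLIF, while mOSM gave 223, 202 and 225 and hlOSM 222, 184 and 190 (-0.59 ± 0.11, adjusted p = 0.00115). Hbegf, a growth factor for the EGF receptor, had 486, 514 and 605 in PBS and 445, 420 and 406 in mLIF, and 466 to 552 with the oncostatin M proteins (-0.33 ± 0.07, adjusted p = 0.00584). The kinase Map4k4 stood at 1345, 1346 and 1542 in PBS and at 1180, 1178 and 1126 in mLIF (-0.28 ± 0.06, adjusted p = 0.00426). These 4 genes, Pecam1 and the fatty acid elongase gene Elovl6 are the 6 that passed all 3 comparisons with the block. The giant cadherin Fat3, with 61, 74 and 66 in PBS and 39, 40 and 40 in mLIF, fell as well (-0.74 ± 0.12, adjusted p = 0.000576). Fn1 (fibronectin), Nid2 (a basement membrane nidogen), Pdcl3, Stk17b, Supt5, Sh2d5 and A730017L22Rik complete the 14 falls.

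**Figure D5:**
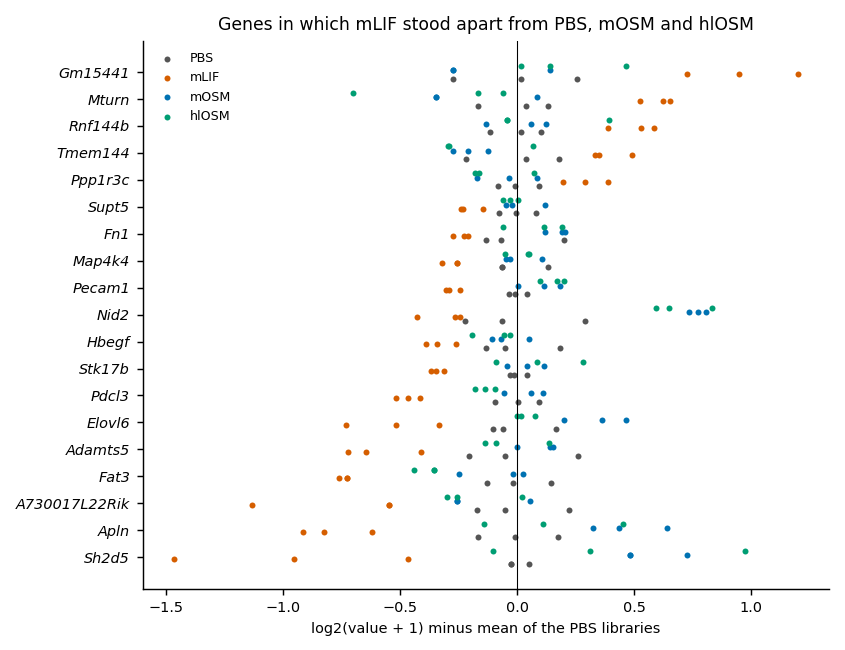
Rows are the 19 genes that stood apart with mLIF, and points are libraries of the 4 conditions, placed by log2(normalized count + 1) minus the mean of the PBS libraries (x axis). The orange mLIF points of Apln, Adamts5 and Map4k4 lie left of all other points of their row, whereas in Nid2 a PBS library comes close to the mLIF points.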

How the data were processed

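RNA of cultured primary cardiomyocytes was sequenced from 12 libraries, 3 for each of PBS, mLIF, mOSM and hlOSM, each assigned to its group by its title. Reads were trimmed and then mapped by the authors with STAR 2.7.7a on mm10. They counted reads at least partly inside exons of a single gene with featureCounts 1.6.5, left out reads on several genes or regions, and normalized the counts. The deposited values are a score on a normalized count scale, rounded to whole numbers, and how they were normalized is not given in the sources used here. They are no read counts, and no count model was used.

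The tests came from limma 3.58.1 under R 4.3.3 (eBayes with trend, two-sided) on log2(value + 1), with the 4 conditions in 1 fit and no minimum fold change. Genes needed a value of at least 10 in at least 3 libraries. p-values were adjusted by the Benjamini-Hochberg method over the 13184 genes. The fits were tested on simulated data. The members and the function lists were chosen with earlier results of these data known. Of the tested identifiers, 13177 were in the GENCODE annotation used for exon overlaps.

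Named genes were the 15 largest rises and falls past the threshold with and without the replicate block, with a mean of at least 50 and no overlap; up to 4 members of each list with the smallest adjusted p; a fixed set of LIF pathway and cardiomyocyte genes; and up to 10 genes in each direction that stood apart with mLIF. Hamp, Lcn2, Fhl1, Bdnf, Angpt1, Gm45774, Txnip, Kcna4, marker genes and the remaining genes that stood apart were named outside this rule, after their values were seen. Same-numbered mLIF and PBS libraries deviated in opposite directions (correlations of -0.23, -0.29 and -0.37 over genes). Removing an effect of the replicate number over the 4 conditions would leave such negative correlations, so they cannot show whether the numbers mark shared batches, and this was not settled. The fit without the number was kept because the design was written that way, and the blocked counts are given with it.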

Additional observations from a re-analysis of the deposited data

How the results depend on the processing

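With the replicate block, 447 genes rose and 337 fell, 86 and 168 lowered genes were lower still with mOSM and hlOSM, and 8 genes stood apart with mLIF. The check of the pairing cannot tell whether the numbers mark shared batches, since an effect of the number appears to have been removed from the values. The blocked counts are then the more cautious ones. Without the libraries numbered 3 (added after seeing the data) the counts were 372 raised, 281 lowered, 148 raised genes higher still with hlOSM, 132 lowered genes lower still with hlOSM, and 11 set apart. In a fit of the 6 libraries of mLIF and PBS alone 926 genes fell and 834 rose. At an adjusted p under 0.01 the counts were 297 raised, 199 lowered, 86 and 128 raised genes higher still with mOSM and hlOSM, 45 and 103 lowered genes lower still, and 6 set apart. A minimum of 1.5-fold left 213, 122, 53, 71, 18, 38 and 4, in the same order, and a minimum of 2-fold 76, 30, 19, 23, 1, 5 and 0; both are fewer by construction. Leaving out 1 library at a time gave 273 to 670 raised and 199 to 507 lowered genes, 103 to 210 and 139 to 273 raised genes higher still with mOSM and hlOSM, 56 to 124 and 116 to 238 lowered genes lower still, and 8 to 16 set apart. The fewest rises came without mLIF 3 and the fewest falls without PBS 3, and falls also dropped to 328 without mLIF 1 and 346 without mLIF 2. The pseudocount, the filters, trimmed-mean and quantile scaling and the robust fit kept each of these counts within 1.5 times. The cause of the other changes was not tested.

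Of the 169 genes taken by the naming rule that passed, 34 lost the call with the block and 58 without the libraries numbered 3, 99 passed in every fit with another pseudocount, filter, scaling, variance model, block or set of libraries, not counting that without the libraries numbered 3, and none changed its direction. The depth of each single library is unknown and limits what can be said of genes near the filter.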

Other observations

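Some of the largest rises with mLIF were in genes near the limit of detection, picked here after their values were seen. Bnip5 had 4, 3 and 0 normalized counts in PBS and 15, 10 and 22 in mLIF, and Tmem252 had 0, 1 and 2 against 11, 6 and 13. Fgf23, a phosphate-regulating hormone mainly of bone, had 2, 0 and 2 against 8, 13 and 6. No fold is given for these genes because their PBS values are so close to 0. They could meet the filter only through cytokine-treated libraries, so the filter itself favoured rises among such genes. Better measured genes outside the lists include the cyclic GMP-dependent kinase Prkg1, which rose from 319, 318 and 248 to 478, 467 and 488, the interleukin-17 receptor gene Il17ra, from 146, 126 and 82 to 190, 198 and 244, and the double-stranded RNA sensor Tlr3, from 58, 56 and 51 to 85, 98 and 95 (limma adjusted p = 6.08e-05, 0.000612 and 0.000367).

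Protein-coding genes made up 685 of 721 rises and 518 of 586 falls. Of 209 tested long intergenic RNAs 6 (2.87%) rose and 18 (8.61%) fell, and of 496 unconfirmed transcripts (TEC) 8 (1.61%) rose and 24 (4.84%) fell, where 5.79% and 4.38% of 11831 protein-coding genes rose and fell.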
